A study of Mus musculus with 18 samples.

Results

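Hypothalamic regional transcription factors are DNA-binding proteins that give the parts of the hypothalamus their identity. The 10 followed here were Nkx2-1, Nkx2-2, Nkx2-4, Hmx2, Hmx3, Fezf1, Nr5a1, Foxb1, Six3 and Dlx1, out of 19937 genes with a named probeset. Each was read from its brightest probeset that is annotated to that gene alone, and all 10 had exactly 1 such probeset. They were measured on 18 arrays of mouse hypothalamus from a study of mice mutant for Wfs1, the gene of wolframin, a membrane protein of the endoplasmic reticulum. The hypothalami were dissected under a microscope. The background is given as 129SV with the samples and as 129S6 with the series, and no age, sex or description of the mutant allele is given in the sources used here.

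Every array carries a pair of genotype labels. The ending of the title divides the arrays into 10 ko and 8 wt, and the genotype field divides them into 9 KO and 9 WT. Written with the ending first and the field second, the groups are ko/KO with 5 arrays, ko/WT with 5, wt/KO with 4 and wt/WT with 4. The labels thus agree on 9 arrays and contradict each other on 9. Neither was taken as the true genotype, and an array is named here by its group and a number that carries no pairing. The titles also hold numbers of their own, and the last of them is lower on every ko array than on any wt array. KO and WT arrays of the field are mixed along it. What that number counts is not given, so a difference by ending is also a difference between its ranges. The level of Wfs1 followed neither label. It was 8.72, 8.68, 8.41, 7.97 and 7.86 log2 units on ko/KO arrays, 7.98, 8.56, 8.07, 8.44 and 8.36 on ko/WT, 8.04, 7.92, 8.61 and 8.06 on wt/KO, and 8.02, 8.04, 7.89 and 8.41 on wt/WT. Which part of the gene its probeset reads is not given. Every difference below is therefore one between arrays that carry a label.

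The factors fall into groups by what they do. Nkx2-1 specifies the tuberal and mammillary hypothalamus, and Nkx2-4 is its close relative. Nkx2-2 is a homeodomain factor of the ventral neural tube that is also used by cells of the oligodendrocyte lineage. Hmx2 and Hmx3 are neighbouring homeobox genes, and in mice they are together needed for growth hormone-releasing hormone neurons of the arcuate nucleus. Nr5a1, the nuclear receptor SF-1, marks the ventromedial nucleus, and Fezf1 is a zinc-finger factor of the same nucleus. Foxb1 marks the mammillary body. Six3 patterns the anterior forebrain, and Dlx1 is a factor of GABAergic neurons. Where a factor marks a nucleus, the share of that nucleus that a dissection takes in bears on the factor's level in bulk tissue. In bulk tissue fewer cells of a type and less RNA per cell cannot be told apart.

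The arrays were alike overall. Their medians lay between 7.10 and 7.19 log2 units, their standard deviations over all probesets between 1.93 and 2.04, and any pair of them had r = 0.975 to 0.991 over probesets. The tissue label was checked against 14 hypothalamic peptides, of which 13 were measured. The 8 peptides Oxt, Avp, Npy, Hcrt, Pmch, Trh, Cartpt and Sst stood above the upper quartile of all values on all 18 arrays, and Pomc, Crh, Gal, Ghrh and Kiss1 did so on 0 arrays. A pair of arrays stood apart. Xist was 5.93 on ko/WT 4 and at least 10.31 on the others, and Ttr, a choroid plexus gene, was 12.8 on wt/WT 3 and at most 10.62 on the others. Some results that rest on ko/WT 4 are given with and without it below. Correlations with the mean of the factors, with gene lists and with the most similar genes are given over all 18 arrays only. Values with wt/WT 3 left out lie within the ranges given for single arrays left out.

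Promoters are shown for the factors whose levels moved together or apart across the arrays. Hmx3 and Hmx2 are direct neighbours on chromosome 7, Six3 had the highest correlation with Hmx2, and Fezf1 had a negative one. The sequences are RefSeq's, on build GRCm38.p6, from 250 bases before to 50 after an annotated start. Capitals mark any of 3 motifs searched on both strands. The CCAAT box was searched as CCAAT and, on the other strand, as ATTGG. The GC box was searched as GGGCGG and, on the other strand, as CCGCCC, and the TATA box as TATAAA and, on the other strand, as TTTATA. The motifs were counted separately. The table held 8 of the 10 factors in 9 entries, with 2 starts for Hmx2. Nr5a1 and Foxb1 had no entry.
Hmx3, chr7:131542713-131543012, plus strand: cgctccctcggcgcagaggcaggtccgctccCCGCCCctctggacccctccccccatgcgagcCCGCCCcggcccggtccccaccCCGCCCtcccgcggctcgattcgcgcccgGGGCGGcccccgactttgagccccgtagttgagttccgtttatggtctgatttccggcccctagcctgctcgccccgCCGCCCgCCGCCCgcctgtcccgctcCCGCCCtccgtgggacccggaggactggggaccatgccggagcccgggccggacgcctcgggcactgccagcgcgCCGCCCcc
Hmx2, chr7:131548507-131548806, plus strand: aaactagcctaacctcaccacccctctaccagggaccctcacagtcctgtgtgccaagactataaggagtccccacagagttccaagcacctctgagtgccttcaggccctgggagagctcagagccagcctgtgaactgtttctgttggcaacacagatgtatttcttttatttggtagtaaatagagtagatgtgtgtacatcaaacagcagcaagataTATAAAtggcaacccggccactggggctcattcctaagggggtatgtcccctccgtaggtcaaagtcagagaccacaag
Hmx2, chr7:131554043-131554342, plus strand: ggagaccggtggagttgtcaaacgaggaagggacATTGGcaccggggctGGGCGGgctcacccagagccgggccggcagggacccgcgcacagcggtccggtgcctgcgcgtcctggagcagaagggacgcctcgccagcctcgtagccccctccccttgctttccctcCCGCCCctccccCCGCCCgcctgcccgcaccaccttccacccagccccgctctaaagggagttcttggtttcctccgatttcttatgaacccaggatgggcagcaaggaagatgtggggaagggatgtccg
Six3, chr17:85620584-85620883, plus strand: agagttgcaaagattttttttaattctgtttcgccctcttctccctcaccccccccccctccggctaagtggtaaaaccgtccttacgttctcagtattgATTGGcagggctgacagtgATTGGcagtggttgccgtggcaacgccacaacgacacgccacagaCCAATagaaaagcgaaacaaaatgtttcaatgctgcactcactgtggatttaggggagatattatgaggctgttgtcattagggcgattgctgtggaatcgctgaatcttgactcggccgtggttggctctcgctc
Fezf1, chr6:23248215-23248514, minus strand: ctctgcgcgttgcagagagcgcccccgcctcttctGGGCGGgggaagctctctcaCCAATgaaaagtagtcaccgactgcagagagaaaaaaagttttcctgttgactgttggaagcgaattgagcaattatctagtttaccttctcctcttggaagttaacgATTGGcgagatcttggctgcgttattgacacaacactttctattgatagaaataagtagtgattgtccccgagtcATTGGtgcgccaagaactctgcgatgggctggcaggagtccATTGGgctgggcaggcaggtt

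The windows differed in base composition and in the motifs they hold. The Hmx3 window was 78.0% G and C with 39 CpG sites and 8 GC boxes. The upstream Hmx2 window was 50% G and C with 2 CpG sites and 1 TATA box. The other Hmx2 window was 67.7% G and C, with 22 CpG sites, 3 GC boxes and 1 CCAAT box. The neighbours Hmx3 and Hmx2 thus both held the GC box, Hmx2 at its downstream start alone. The windows of Nkx2-4, Nkx2-2, Dlx1 and Nkx2-1 held it as well, with 3, 1, 1 and 1 matches. The Six3 window held 3 CCAAT boxes and no GC box, and the Fezf1 window held 4 CCAAT boxes and 1 GC box, both at 50% G and C. Over all 32851 promoters of the table, 37.4% held a CCAAT box, 35.7% a GC box and 13.6% a TATA box, and the medians were 52.7% G and C and 7 CpG sites. A match is a run of letters and not a bound site.

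All 10 factors lay above the lower quartile of all values on all 18 arrays. Foxb1 was above the array median on 3 arrays and Nr5a1 on 16, and the other 8 factors on 18. Their spread over arrays was small. The SD of a factor ran from 0.098 for Nkx2-2 to 0.17 for Fezf1, with a median of 0.12, against a median of 0.13 over all genes, and 4 of the 10 were above that median. From the lowest to the highest array the factors moved by 1.30-fold (Nkx2-2) to 1.59-fold (Dlx1).

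Among the NK2 homeobox genes, Nkx2-1 was 7.55, 7.69, 7.52, 7.77 and 7.64 log2 units on ko/KO arrays, 7.51, 7.54, 7.53, 7.47 and 7.41 on ko/WT, 7.63, 7.63, 7.67 and 7.72 on wt/KO, and 7.85, 7.67, 7.62 and 7.56 on wt/WT. All 5 ko/WT arrays lay below all wt/KO and all wt/WT arrays, and they overlapped the ko/KO arrays. Nkx2-2 was 7.94, 7.83, 7.81, 7.82 and 7.92 on ko/KO arrays, 7.74, 7.77, 7.70, 7.72 and 7.70 on ko/WT, 7.80, 7.82, 7.76 and 7.84 on wt/KO, and 7.56, 7.58, 7.82 and 7.76 on wt/WT. The wt/WT arrays were divided, with wt/WT 1 and wt/WT 2 the lowest of the series. Nkx2-4 ranged from 8.11 on ko/WT 5 to 8.56 on ko/KO 2, with a median of 8.26.

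Of the arcuate pair, Hmx2 was 7.69, 7.91, 7.82, 7.87 and 7.62 on ko/KO arrays, 7.82, 7.92, 7.86, 7.84 and 7.68 on ko/WT, 7.73, 7.78, 7.79 and 8.22 on wt/KO, and 8.01, 8.11, 8.06 and 7.90 on wt/WT. A single wt/KO array, wt/KO 4, held the highest value, and the ko/KO and wt/WT groups overlapped only at ko/KO 2 and wt/WT 4. Hmx3 ranged from 7.51 on ko/WT 4 to 8.04 on ko/KO 2, with a median of 7.81, and the 4 groups overlapped.

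Of the ventromedial pair, Fezf1 was 8.26, 8.27, 8.02, 8.30 and 8.27 on ko/KO arrays, 8.08, 8.2, 8.13, 7.98 and 7.96 on ko/WT, 8.54, 8.49, 8.27 and 8.06 on wt/KO, and 8.02, 8.15, 7.97 and 8.03 on wt/WT. Both field KO groups reached higher values than the field WT groups, with ko/KO 3 and wt/KO 4 among the low arrays. Nr5a1 was 7.28, 7.30, 7.33, 7.34 and 7.28 on ko/KO arrays, 7.38, 7.42, 7.41, 7.18 and 7.11 on ko/WT, 7.42, 7.39, 7.10 and 7.44 on wt/KO, and 7.54, 7.49, 7.39 and 7.42 on wt/WT. All ko/KO arrays lay below all wt/WT arrays, and the 3 lowest arrays were in the contradicting groups.

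The mammillary gene Foxb1 was 6.94, 7.31, 7.15, 7.08 and 6.96 on ko/KO arrays, 6.91, 7.05, 7.03, 6.89 and 6.88 on ko/WT, 7.13, 7.2, 7.08 and 7.10 on wt/KO, and 7.08, 7.14, 7.13 and 7.0 on wt/WT. The ko/WT arrays all lay below the wt/KO arrays. Six3 ranged from 7.18 on ko/WT 5 to 7.58 on wt/WT 1, with a median of 7.44. Dlx1 ranged from 8.38 on ko/WT 4 to 9.05 on ko/KO 1, with a median of 8.76. For both of these genes the 4 groups overlapped.

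**Figure D1:**
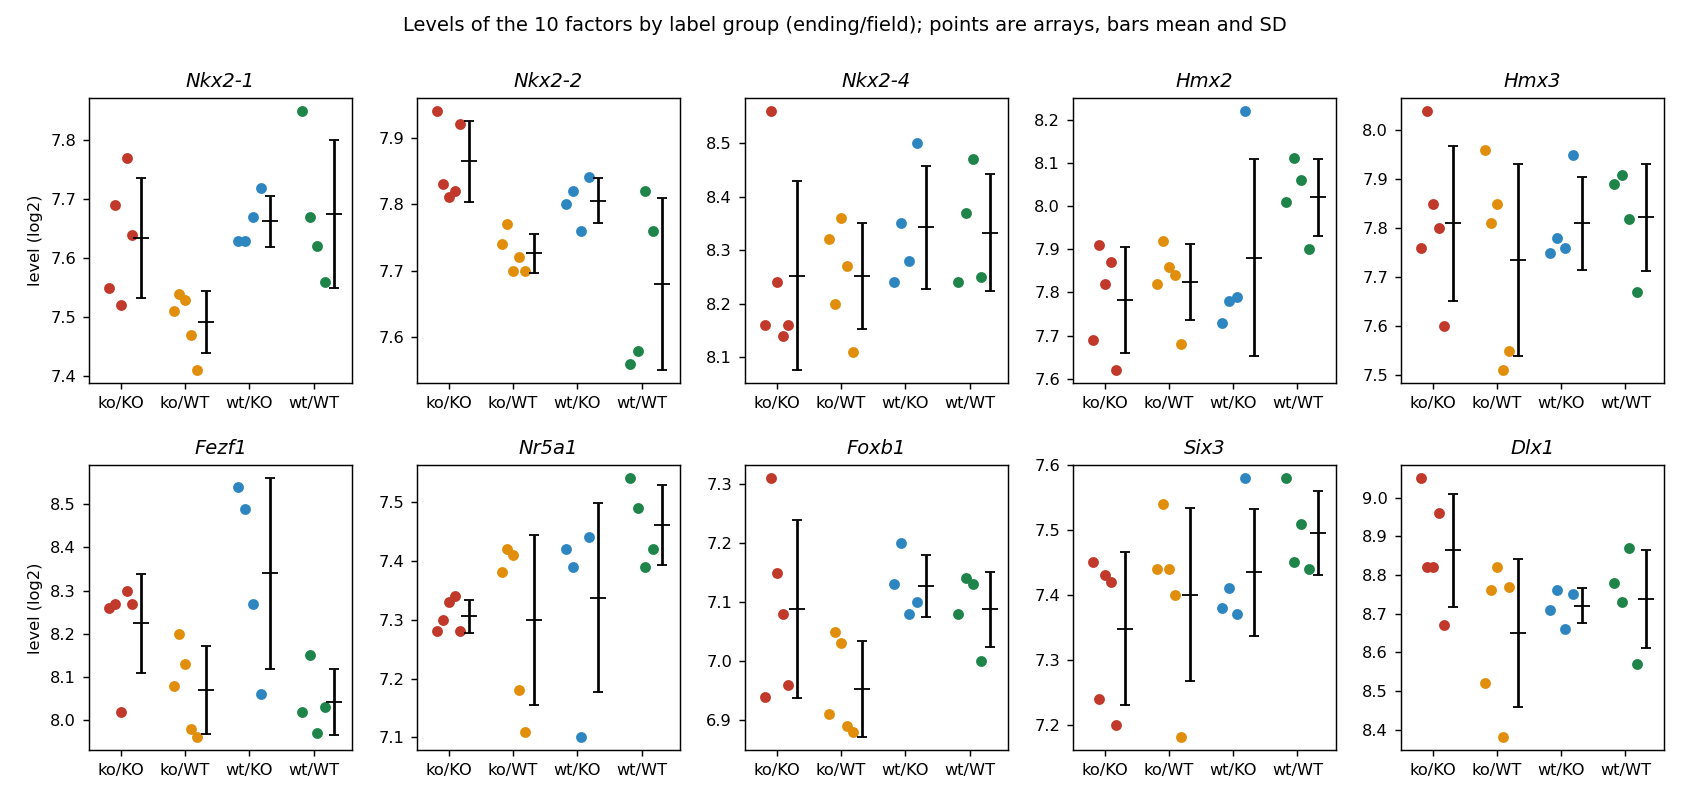
Level of each factor in log2 units (y axis, own scale in each panel, not starting at 0) for the groups ko/KO, ko/WT, wt/KO and wt/WT (x axis). Points are arrays and bars the mean and SD. Nkx2-1 and Foxb1 on ko/WT arrays lie below wt/KO, Nr5a1 on ko/KO lies below wt/WT, and the other factors overlap in both of these comparisons.

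By title ending, 8 of the 10 factors had a lower mean on the ko arrays than on the wt arrays, and the median of the 10 differences was -0.086 log2 units, against 0.003 over all genes. Hmx2 was 7.80 ± 0.10 on ko arrays and 7.95 ± 0.18 on wt arrays (SD, n = 10 and 8), a difference of -0.15 (SE 0.065, limma unadjusted p = 0.034). Nkx2-1 was 7.56 ± 0.11 on ko arrays and 7.67 ± 0.09 on wt arrays, a difference of -0.11 (SE 0.050, limma unadjusted p = 0.048). Nkx2-2 and Dlx1 had the higher mean on ko arrays, by 0.05 and 0.03. None passed. limma called 0 of 10 factors and 0% of all genes, with an adjusted p of at least 0.884, and 2 of 10 factors had an unadjusted p under 0.05, against 4.63% of all genes. In 36 measured transcription factors of other hypothalamic regions, 26 were lower and 10 higher on ko arrays (median -0.049), and 4 had an unadjusted p under 0.05, all lower. Among them were Bsx, an arcuate homeobox gene, at -0.15, Lmx1b, of the posterior hypothalamus and midbrain, at -0.18, and Barhl1, a mammillary gene, at -0.15 (limma adjusted p = 0.884 for each). The thalamic gene Synpo2 differed the other way, by 0.15 (SE 0.064, limma unadjusted p = 0.033), and its part in these differences was not tested.

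By genotype field, the pattern was another. Fezf1 was 8.28 ± 0.17 on KO arrays and 8.06 ± 0.09 on WT arrays (SD, n = 9 each), a difference of 0.22 (SE 0.062, limma unadjusted p = 0.0021, adjusted p = 0.694). Nkx2-2 was 7.84 ± 0.06 on KO arrays and 7.71 ± 0.09 on WT arrays, a difference of 0.13 (SE 0.042, limma unadjusted p = 0.0049, adjusted p = 0.694). In all, 7 factors had the higher mean on KO arrays and 3 the lower (median 0.054, against -0.0056 over all genes). limma called 0 factors and 0% of all genes, and 2 of 10 had an unadjusted p under 0.05, against 6.95% of all genes. Leaving out 1 array at a time kept the Fezf1 difference between 0.18 and 0.25 and that of Nkx2-2 between 0.11 and 0.15. The SD of an array was added as a covariate after seeing the data, and the calls, 0 before, stayed at 0. Genes with an unadjusted limma p under 0.05 then numbered 656, against 1386 without it. Nkx2-2 had r = 0.53 with that SD and Fezf1 0.33. Of the other 36 transcription factors, 19 were higher and 17 lower.

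On the 9 arrays whose labels agree, Hmx2 was 7.78 ± 0.12 on ko/KO arrays and 8.02 ± 0.09 on wt/WT arrays (SD, n = 5 and 4), a difference of -0.24 (SE 0.083, limma unadjusted p = 0.013, adjusted p = 0.390). Nr5a1 was 7.31 ± 0.03 on ko/KO arrays and 7.46 ± 0.07 on wt/WT arrays, a difference of -0.15 (SE 0.069). Nkx2-2 and Fezf1 had the higher mean on ko/KO arrays, each by 0.18 (SE 0.079 and 0.080). These 4 of 10 factors had an unadjusted limma p under 0.05, against 11.1% of all genes, and 0 were called, as were 0% of all genes. Groups did not overlap for 1 factor, Nr5a1, against 2.82% of all genes.

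On the 9 arrays whose labels contradict each other, the mean of all 10 factors was lower on ko/WT arrays than on wt/KO arrays, with a median difference of -0.077, against 0.0055 over all genes. Fezf1 differed by -0.27 (SE 0.097), Foxb1 by -0.18 (SE 0.059) and Nkx2-1 by -0.17 (SE 0.053), and these 3 of 10 had an unadjusted limma p under 0.05 (0.017, 0.012 and 0.0075), against 2.74% of all genes. limma's adjusted p was 1.0 for each, and it called 0 factors and 0% of all genes. Groups did not overlap for Nkx2-1 and Foxb1, 2 of 10, against 0.767% of all genes. The array low in Xist is in the ko/WT group. Without it all 10 remained lower, with Dlx1 at -0.0025, and Foxb1 and Nkx2-1 stayed between -0.20 and -0.15 with any 1 array left out. The direction of Hmx2 turned without wt/KO 4 (0.057), that of Nr5a1 without ko/WT 5 (0.010), and that of Six3 without either (0.013 and 0.020). The interaction of ending and field was tested as well. limma called 0 factors, 0 of 10 had an unadjusted p under 0.05 (5.18% of all genes had), and the lowest was 0.092 for Dlx1. Over all 18 arrays, by ending or by field, groups overlapped for all 10 factors, and 0.00502% of all genes did not overlap in either.

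The levels of the factors went together across the arrays more often than apart. Of the 45 pairs, 35 correlated above 0 and 10 above r = 0.5, with a median r of 0.30, against a median of 0.010 over all gene pairs, of which 8.62% were above 0.5. The median stood at 0.29 with array SD removed, 0.29 with the first principal component removed and 0.23 with the group means removed. It was 0.39 within the ko arrays and 0.32 within the wt arrays. The median was lower without either of the arrays with the lowest factor levels. On ko/WT 5 and ko/WT 4 the mean of the factors' standardized levels was -1.39 and -1.09, and without each of them the median r was 0.23. The highest means were 0.90 on wt/KO 4 and 0.71 on ko/KO 2, and without ko/KO 2 the median r was 0.35.

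**Figure D2:**
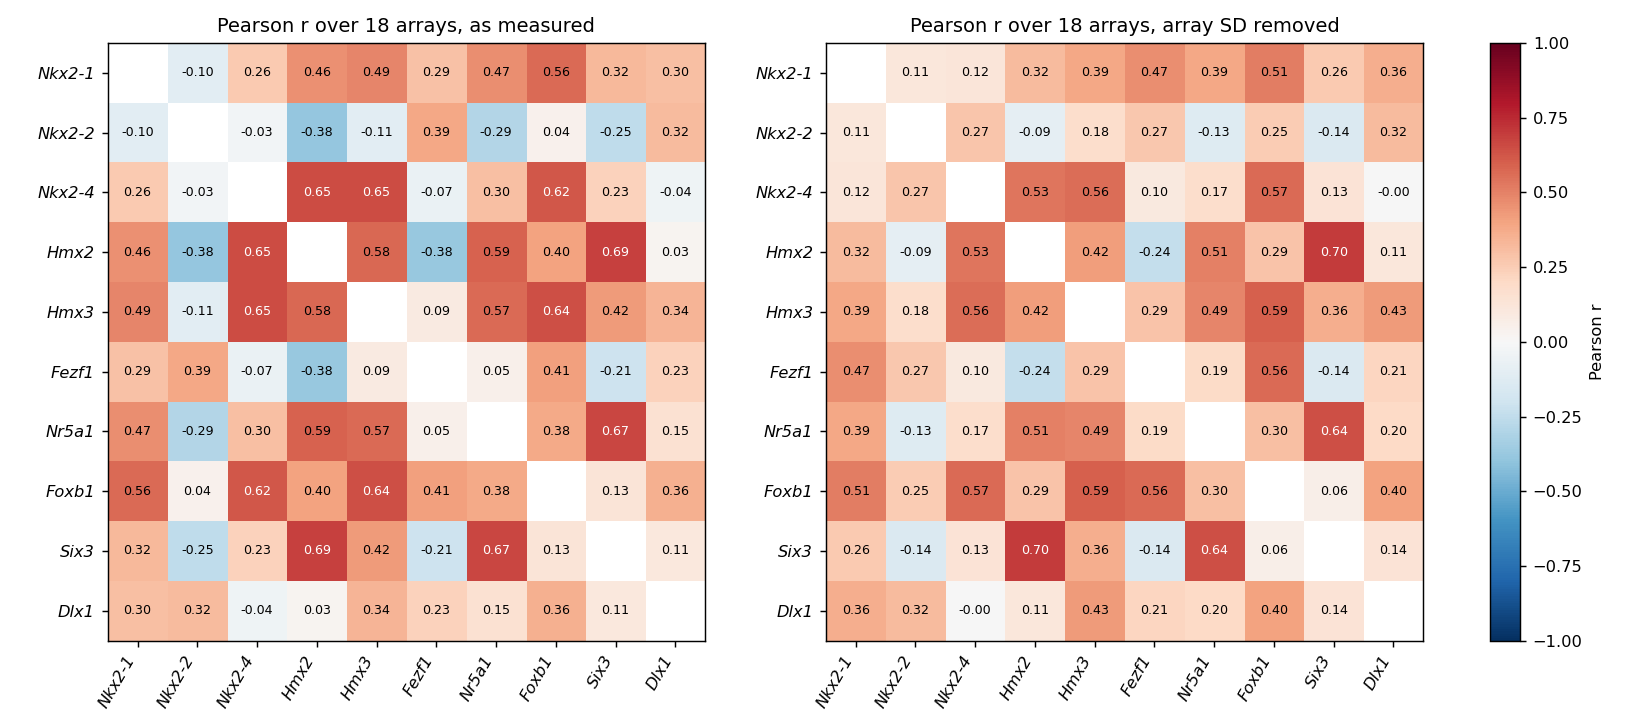
Pearson r of each pair of factors over 18 arrays, as measured (left) and after a linear fit on the SD of all values of an array was removed (right). Hmx2 with Six3 is the highest pair on both sides (0.69 and 0.70), and Nkx2-2 and Fezf1 hold most of the negative values.

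The closest pair was Hmx2 with Six3 (r = 0.69, rho = 0.71, permutation p = 0.00153 and 0.00117). It was 0.54 without the 2 arrays farthest in Six3, 0.62 to 0.77 with any 1 array left out, 0.70 with array SD removed and 0.58 with the first principal component removed. Six3 also went with the ventromedial gene Nr5a1 (r = 0.67, rho = 0.72, permutation p = 0.00277 and 0.00089), at 0.57 without the 2 arrays farthest in Six3 and 0.64 with array SD removed. Nkx2-4 went with Hmx2 and with Hmx3 (r = 0.65 for each), and these were 0.53 and 0.56 with array SD removed, and 0.083 and 0.29 with the first principal component removed. Foxb1 went with Hmx3 (r = 0.64), Nkx2-4 (0.62) and Nkx2-1 (0.56), and those values were 0.59, 0.57 and 0.51 with array SD removed. Without ko/KO 2 and ko/WT 5, the arrays farthest in Foxb1, they were 0.43, 0.36 and 0.46. Foxb1 with Nkx2-1 was 0.26 with group means removed, 0.60 within the ko arrays and 0.022 within the wt arrays. Hmx3 with Nr5a1 was 0.57 and rested on ko/WT 4 and ko/WT 5, since it was 0.28 without them.

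Genes that lie side by side or mark the same nucleus were not always alike. Hmx2 and Hmx3, direct neighbours, had r = 0.58 (rho = 0.63), which was 0.42 with array SD removed and -0.056 with the first principal component removed. Nkx2-2 and Nkx2-4, also neighbours, had r = -0.029. Dlx1 had r = 0.084 with its neighbour Dlx2, Six3 0.36 with Six2 and Nkx2-1 0.097 with Nkx2-9. The ventromedial genes Fezf1 and Nr5a1 had r = 0.050. Of the 10 pairs below 0, the lowest were Hmx2 with Nkx2-2 and Hmx2 with Fezf1, both at -0.38, which were -0.086 and -0.24 with array SD removed and -0.016 and -0.085 with the first principal component removed.

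Tested against all genes, only some factors had genes that tracked them. With the level of Hmx2 as covariate, limma called 6357 of 19936 genes (31.9%), with Nkx2-4 it called 2923 (14.7%), with Hmx3 2558 (12.8%) and with Nr5a1 3 (0.015%), and with each of the other 6 factors it called 0 (0%). At an unadjusted p under 0.05 those 6 had from 529 genes (Dlx1) to 3555 (Six3). Of the ordered pairs of factors 8 were called, all with Hmx2, Hmx3 or Nkx2-4 as covariate, and limma's adjusted p ran from 0.015 (Six3 on Hmx2) to 0.046 (Foxb1 on Hmx3). A share of called genes this large is the background for these pairs. The same arrays differed in overall spread, and the first principal component, which held 29.0% of the variance, had r = -0.81 with the SD of an array. Hmx2 had r = 0.85 with that component, Nkx2-4 0.73 and Hmx3 0.70, while Nkx2-2 had -0.44 and Fezf1 -0.40. With array SD as a covariate the counts were 120 genes for Hmx2 (0.602%), 0 for Nkx2-4, 3 for Hmx3 and 2 for Nr5a1, and the 8 pairs had limma adjusted p values from 0.083 to 0.306.

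**Figure D3:**
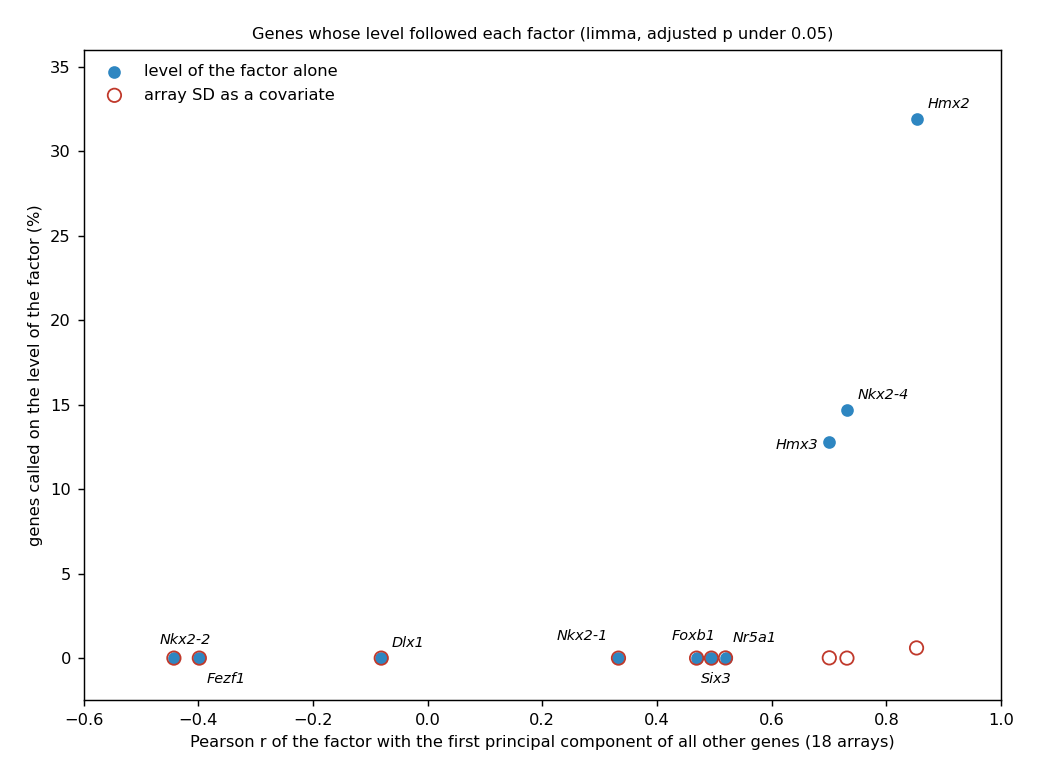
Percent of 19936 genes called by limma at an adjusted p under 0.05 on the level of each factor (y axis) against the Pearson r of that factor with the first principal component of all other genes (x axis), over 18 arrays. Filled points use the factor alone and open ones add the SD of the array as a covariate. Hmx2, Nkx2-4 and Hmx3, the 3 factors with the highest r, hold all but 3 of the called genes, which are those of Nr5a1, and the open points lie at or below 0.602%.

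These counts turned on single arrays. Leaving out 1 array at a time gave 4655 to 6514 genes for Hmx2, 269 to 4339 for Nkx2-4 and 216 to 4114 for Hmx3, and the lowest counts of Nkx2-4 and Hmx3 both came without ko/KO 2. Without that array Six3 had 3500 genes, and without any other array at most 2. Six3 on Hmx2 kept its call with any 1 array left out (limma adjusted p at most 0.0499), while Foxb1 on Hmx3 lost it without any 1 of 12 arrays. After quantile normalization 4 of the 8 pairs were no longer called, and with label groups as a covariate 5 were not. Six3 on Hmx2 was among them both times (limma adjusted p = 0.056 and 0.105).

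The genes most like each factor over 18 arrays differed by factor. Fezf1 was most like Adcyap1 (r = 0.80, rho = 0.69), the gene of the peptide PACAP made by many ventromedial neurons, followed by Tusc3 and Pnma1 (0.78 and 0.76). Adcyap1 with Fezf1 stood at 0.77 with array SD removed. Nkx2-2 was most like Mid1ip1 (0.83), Ell2 (0.82) and Ifnar2 (0.82). Hmx2 was most like Exoc3l2, Dmrt3 and Tgif2 (0.92, 0.91 and 0.91), and Hmx3 most like Gbx1, Mrpl28 and Chil5 (0.89, 0.88 and 0.85). Foxb1 was most like Basp1 (0.86), Olfr822 (0.80) and the homeobox gene Vax1 (0.78). The other lists were Olfr1307, Tas2r124 and Prdm8 for Nkx2-1 (0.79 to 0.81), Cited4, Adra2c and Pitx1 for Nkx2-4 (0.87 to 0.88), Pldi, Calhm6 and Slc6a5 for Nr5a1 (0.82 to 0.86), Hs1bp3, Stard8 and Hspa1l for Six3 (0.82 to 0.84) and Rlbp1, Slc3a2 and Fbxw26 for Dlx1 (0.73 to 0.77). These are descriptions, since the highest of 19936 values is given for each.

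The mean of the 10 standardized levels had r = 0.56 with the first principal component and -0.32 with the SD of an array. It was lowest on ko/WT 5 and ko/WT 4 (-1.39 and -1.09), and correlations with it are not given without them. With this mean, the highest genes were Zfp831 (r = 0.82), Gbx1 (0.81) and C4a (0.81), and Rgs14 stood at 0.78. The lowest were Cntnap5c (-0.88), Anapc1 (-0.85), Myh10 (-0.81), Slc40a1 (-0.80) and Spag9 (-0.80), and the insulin receptor gene Insr stood at -0.80. Of all genes, 54.7% had a value above 0, with a median of 0.058. Of 36 other hypothalamic transcription factors, 25 were above 0, with a median of 0.38, or 0.29 with array SD removed. Lmx1b (0.66) and the arcuate factor Tbx3 (0.66) were the highest of them. Among the peptides that define the tissue 11 of 13 were above 0 (median 0.35, or 0.42 with array SD removed), with Oxt at 0.62 and Avp at 0.62. Lists of single nuclei had medians nearer that of all genes. The ventromedial median was 0.11 (12 of 18 above 0), the arcuate 0.12 (11 of 16) and the mammillary 0.13 (10 of 15). The suprachiasmatic and preoptic median was 0.12 (10 of 18), the paraventricular 0.15 (7 of 11) and the lateral -0.050 (4 of 10). In that order they were 0.24, 0.30, 0.075, 0.15, 0.45 and 0.062 with array SD removed. Of the pituitary genes 10 of 11 were above 0, with a median of 0.39, or 0.34 with array SD removed, and Pitx1 was at 0.47. Cortical and hippocampal genes had 9 of 15 above 0 (median 0.13) and striatal genes 3 of 12 (-0.11). Several lists went the other way. Of the thalamic genes 5 of 24 were above 0, with a median of -0.29, and Nexn, at -0.74, was the lowest. Midbrain genes (3 of 11, median -0.33), oligodendrocyte genes (4 of 18, -0.28) and pan-neuronal genes (3 of 11, -0.27) were about as low, and with array SD removed the medians were -0.31 for thalamic, -0.17 for midbrain, -0.19 for oligodendrocyte and -0.13 for pan-neuronal genes.

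Marker lists of cell types and nuclei were set beside single factors. Nkx2-2 went with oligodendrocyte genes, 16 of 18 of which had r above 0, with a median of 0.37, against -0.019 over all genes and 47.9% above 0. The highest were Gpr17 of precursors (0.63), Gpr37 (0.60), Ermn (0.59) and Olig2 (0.51). With array SD removed it was 16 of 18 and 0.34. Midbrain genes were as high with Nkx2-2 (10 of 11 above 0, median 0.41, or 0.18 with array SD removed), and of the pan-neuronal genes 9 of 11 were above 0 (0.19, or 0.069). For the other factors the count of oligodendrocyte genes above 0 ran from 2 of 18 for Nkx2-1 to 10 of 18 for Six3. Of the paraventricular genes, 8 of 11 were above 0 with Nkx2-2 (median 0.18, or 0.11 with array SD removed). Of the ventromedial genes, 13 of 18 were above 0 with Fezf1 (median 0.29, against -0.047 over all genes and 44.7% above 0), led by Adcyap1, Gda (0.63) and Tac1 (0.50). With Nr5a1, a marker of the same nucleus, it was 12 of 18 with a median of 0.11, and Adcyap1 was at -0.23. With array SD removed both had 12 of 18 and a median of 0.22. The arcuate list was higher with Fezf1 (14 of 16, median 0.36), and the ventromedial list was as high with Dlx1 (14 of 18, 0.31). With Hmx2 the arcuate list had 6 of 16 above 0 (median -0.20, against 0.065 over all genes and 53.6% above 0). With Hmx3 it was 9 of 16 (0.077, against 0.092 and 56.7%), and with array SD removed the medians were 0.090 and 0.27. Ghrh stood at 0.061 with Hmx2 and 0.039 with Hmx3. Nkx2-1 had 10 of 16 arcuate genes above 0 (0.089, against -0.025 and 47.3%) and 4 of 10 lateral genes (-0.021). With the mammillary gene Foxb1, 8 of 15 other mammillary genes were above 0, a share near the 52.6% of all genes (medians 0.023 and 0.026), with Barhl1 and Foxa1 at 0.49 and Irx5 at -0.54. With Nkx2-4, 9 of these 15 were above 0 (median 0.30, against 0.086 over all genes and 55.6% above 0). With array SD removed that median was 0.12. Pituitary genes were higher with Nkx2-4 (11 of 11 above 0, median 0.48), cortical and hippocampal genes were at 0.26 and thalamic genes at -0.26. Of suprachiasmatic and preoptic genes, 7 of 18 were above 0 with Six3 (-0.013, against 0.093 and 58.5%). With Dlx1, its family members ran from 0.66 for Dlx5 and 0.26 for Dlx6 to 0.084 for Dlx2, and Sim1, of paraventricular neurons, stood at 0.67. Genes outside the likeness lists and the top 2 of each list were chosen after their values were seen.

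Synpo2, an actin-binding protein gene, served as the thalamic marker and was set beside the factors. It ranged from 8.40 on wt/KO 4 to 9.01 on ko/WT 2, with a median of 8.72. Of 23 other thalamic genes, 20 went with it (median r = 0.63), led by Prkcd (0.82), Rora (0.81) and Lef1 (0.80). Of the 10 factors, 9 had r below 0 with Synpo2, with a median of -0.18, against 0.040 over all genes, of which 43.5% were below 0. The lowest was Nkx2-1 at r = -0.39 (rho = -0.46, permutation p = 0.104 and 0.055), at -0.29 without ko/WT 2 and wt/KO 4, the arrays farthest in Synpo2. Fezf1 (-0.25), Hmx2 (-0.27) and Nkx2-4 (-0.24) followed, and Hmx2 turned to 0.027 without wt/KO 4. Six3 was at 0.017. With a slope on Synpo2, limma called 0 of 10 factors and 0% of all genes (adjusted p = 1.0 for each factor), and 0 of 10 had an unadjusted p under 0.05, against 4.58% of all genes. With the thalamic gene Zmat4 in place of Synpo2, 8 of 10 factors were below 0 with a median of -0.26 and Nkx2-1 at -0.58, and with the mean of the thalamic list 9 of 10, with a median of -0.28. Within endings, Nkx2-1 had r = -0.50 on ko arrays and 0.27 on wt arrays.

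**Figure D4:**
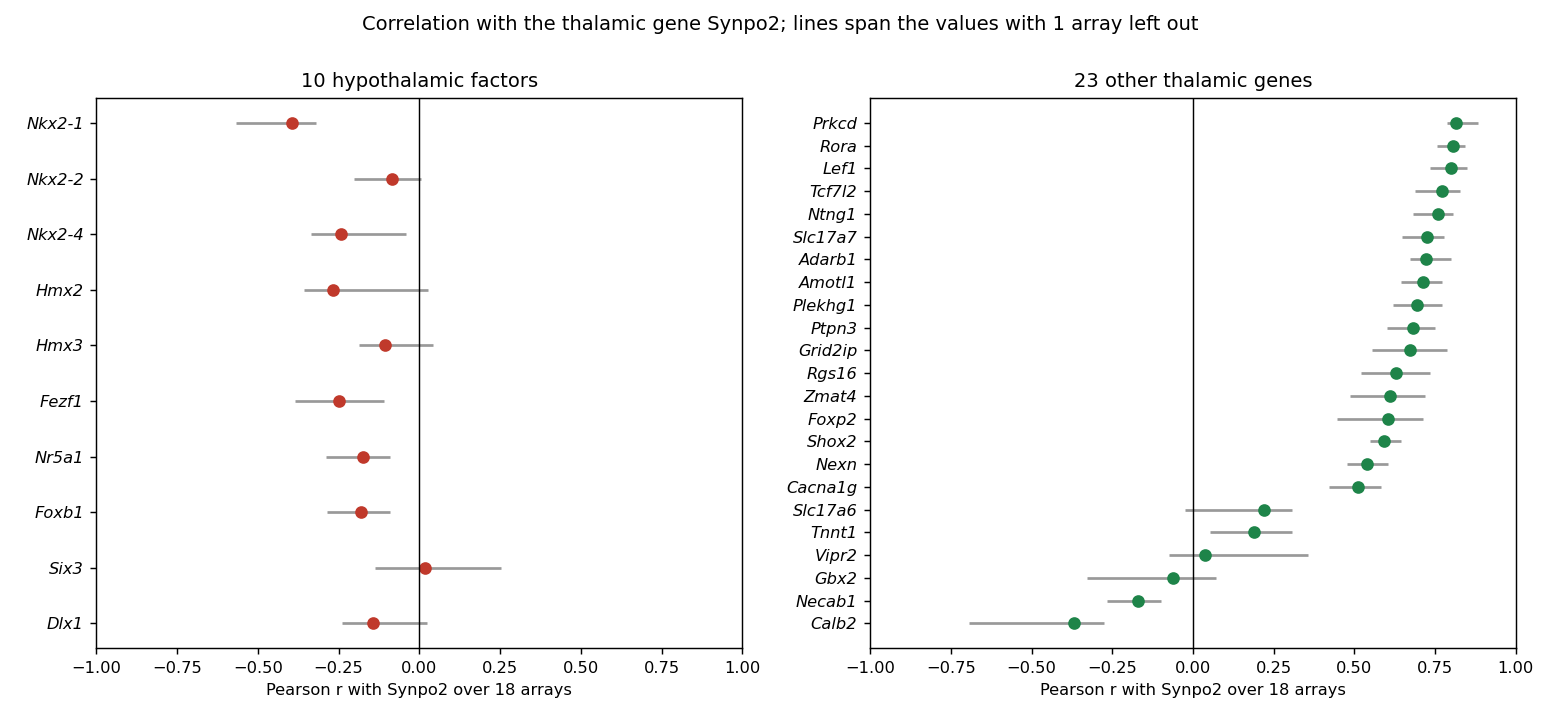
Pearson r with Synpo2 over 18 arrays for the 10 factors (left) and 23 other thalamic genes (right). Points are values over all arrays and lines span the values with any 1 array left out. The factors lie between -0.39 and 0.017, while 20 of 23 thalamic genes lie above 0.

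The Wfs1 level divides the arrays at 8.2 log2 units into 10 below, from 7.86 to 8.07, and 8 above, from 8.36 to 8.72. These sets come from measured values, are not genotypes and get no test. They hold 2 and 3 of the ko/KO arrays, 2 and 3 of ko/WT, 3 and 1 of wt/KO, and 3 and 1 of wt/WT, below and above in that order. Of the 10 factors, 9 had the higher median below 8.2, with a median difference (below minus above) of 0.055, against -0.005 over all genes, of which 45.8% had the higher median below. The largest was Nr5a1, with a median of 7.40 below and 7.29 above. Nkx2-1 was 7.64 below and 7.55 above, and Nkx2-4 was 8.34 below and 8.25 above. Dlx1 was 0.01 lower below. The values of all 10 overlapped between the sets. The median SD of an array was 2.01 below and 2.0 above.

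Below 8.2 the factors did not follow Wfs1 in 1 way, with r from -0.57 for Nkx2-2 to 0.67 for Nr5a1. Above 8.2 every factor had a positive r, from 0.019 for Hmx2 to 0.95 for Fezf1, though the rho of Nr5a1 was -0.090. The share of all genes with a positive r there is not given. Nkx2-4 had 0.42 above 8.2, which was 0.0029 without ko/KO 2. Without ko/WT 5 the values above 8.2 turned negative for Hmx2, Six3 and Nr5a1 (-0.38, -0.31 and -0.24). Hmx3 had r = 0.63 below 8.2 and 0.62 above, and the value below was 0.35 without ko/KO 5. Fezf1 had -0.10 below and 0.95 above, where it stayed between 0.94 and 0.96 with any 1 array left out. Nkx2-2 had -0.57 below and 0.75 above, Nkx2-1 0.093 below and 0.71 above, and Nr5a1 0.67 below and 0.060 above. These are values over 10 and 8 arrays, given as descriptions.

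**Figure D5:**
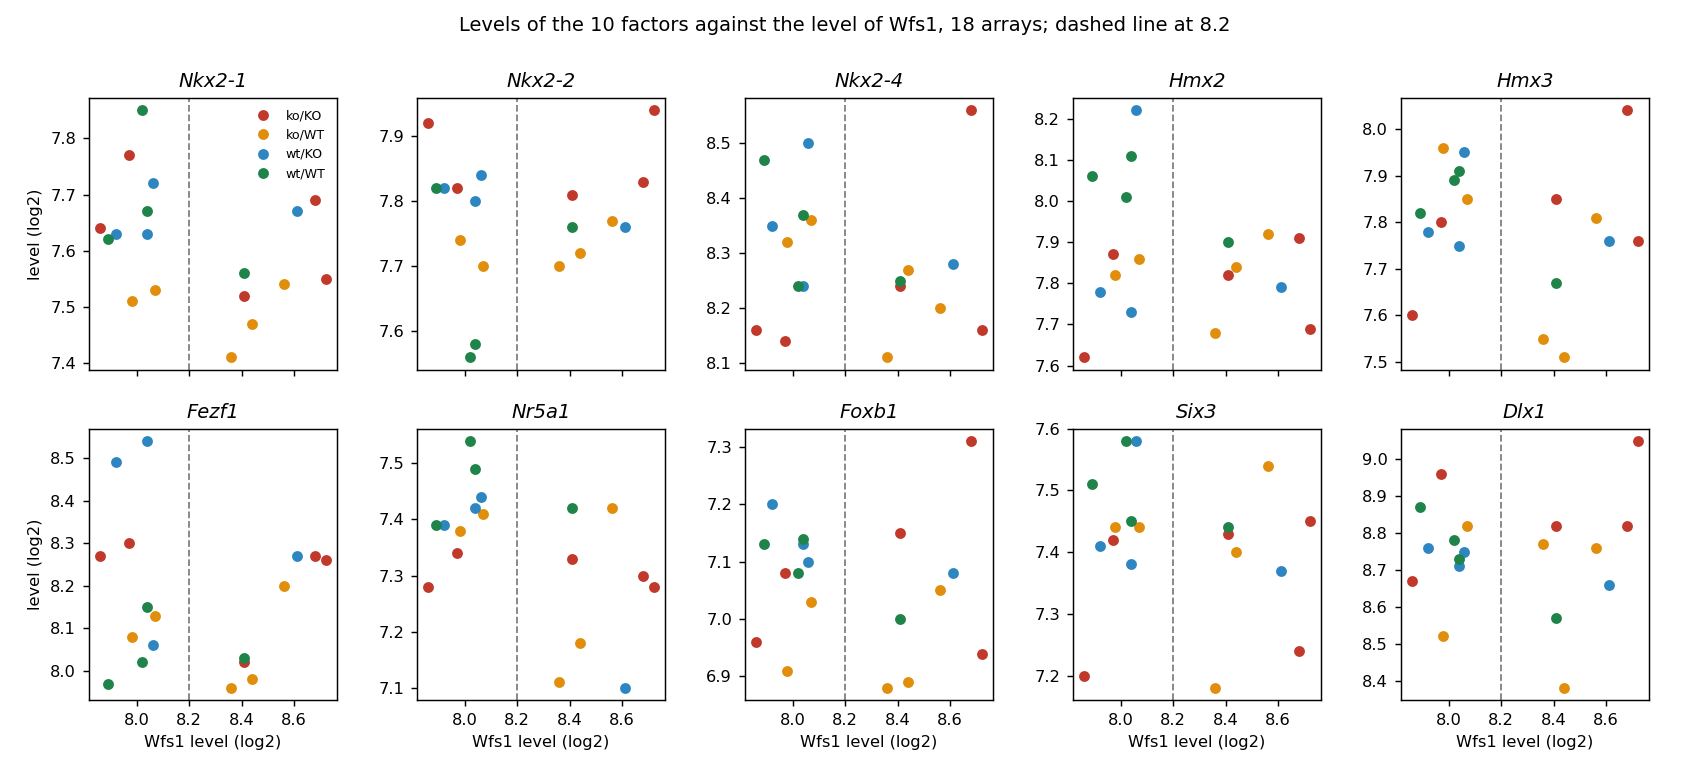
Level of each factor (y axis, log2 units, own scale) against the level of Wfs1 (x axis, log2 units) on 18 arrays, coloured by label group, with a dashed line at 8.2. For 9 factors the 10 arrays left of the line have the higher median, and the sets overlap for all 10.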

How the data were processed

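Hypothalamic RNA was measured on 18 arrays. The deposited table holds log2 expression values for 34760 probesets, from 1.11 to 14.54. Their range fits a log2 scale, which no label states. RMA and MAS5 appear in the submitters' processing notes without a role or a version. Background correction and detection calls could not be examined, since no scanner files were used here. Platform annotation paired 21640 probesets with 1 symbol, and the brightest per gene was kept, leaving 19937 genes.

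Groups were compared with limma 3.58.1 (lmFit, eBayes, R 4.3.3), Benjamini-Hochberg over all genes at an adjusted p of 0.05, tested on simulated data. Correlations and their 100000 permutations, two-sided, used numpy 2.4.6, with ranks from scipy 1.17.1, and the number of arrays limits precision. Alternatives were quantile normalization, leaving out the dimmest 40% of genes, the mean of probesets, an intensity trend and each array left out. The array SD was added after seeing the data. Members and lists were chosen with earlier results of these data known. Named were, for each factor, the 3 most correlated genes, for their mean the 15 at each end, and 2 genes per list. No label says that arrays are separate animals, so p-values measure only the spread between these arrays, part of which may be technical.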

Additional observations from a re-analysis of the deposited data

Results flagged for a closer look

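In total, 5 values stood far from the rest of their label group, out of 48 groups examined, where chance marks about 1 in 20. Nkx2-4 was 8.56 log2 units on ko/KO 2, against 8.24 on the next ko/KO array. On wt/KO 4 Hmx2 was 8.22, against 7.79 on the next wt/KO array, and Hmx3 was 7.95, against 7.78. Fezf1 was 8.02 on ko/KO 3, the lowest of its group, where the next was 8.26. Nr5a1 was 7.10 on wt/KO 3, where the next was 7.39. Both wt/KO 4 values were high together, and no cause was tested.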

How the results depend on the processing

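Of 995 recomputed values of single factors by label or on Synpo2, 956 kept their sign and their side of the threshold, 39 changed sign and 0 passed. Among these, an intensity trend and leaving out dim genes could not change a sign. Nor could the mean of probesets by label, since each factor has 1 probeset. By label, 0 genes were called under every alternative run. With Synpo2 as covariate, 1 gene was called with an intensity trend, 1 after quantile normalization, 1 without the dimmest genes and 13 with the thalamic list's mean, and 0 to 1 with an array left out. The factors' median r was 0.23 to 0.35 with an array left out, and the Wfs1 difference 0.04 to 0.0825.

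Slopes on Synpo2 changed sign with label groups as a covariate for Fezf1 (0.00943), Foxb1 (0.14) and Hmx3 (0.00862), with Zmat4 for Dlx1 (0.24), Nkx2-2 (0.28) and Six3 (-0.22), and with the list's mean for Nkx2-2 (0.024) and Six3 (-0.00645). With an array left out they ran from -0.24 to 0.020 for Dlx1, -0.41 to 0.026 for Hmx2, -0.17 to 0.043 for Hmx3, -0.11 to 0.0034 for Nkx2-2 and -0.11 to 0.20 for Six3. By field, Nkx2-4 was -0.00617 after quantile normalization and -0.029 to 0.027 with an array left out. By ending, Dlx1 ran from -0.0043 to 0.070 and Fezf1 from -0.076 to 0.0056. On agreeing arrays Hmx3 was 0.094 with array SD as a covariate and -0.070 to 0.040 with an array left out, Foxb1 -0.055 to 0.038 and Nkx2-1 -0.079 to 0.017. On contradicting arrays Hmx2 ran from -0.11 to 0.057, Nr5a1 from -0.12 to 0.010 and Six3 from -0.070 to 0.020. The cause was not tested. No paired analysis was possible because the array numbers carry no pairing.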
